A study of Mus musculus with 12 samples.

Results

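The comparison described here set p38a-knockout dendritic cells (KO) against wild-type cells (WT) at 2 h of stimulation with Pam3CSK4, a synthetic lipopeptide that activates Toll-like receptor TLR2. It rests on 4 of the 12 arrays of the study, the 2 titled KO TLR2L 2h (A and B) and the 2 titled WT TLR2L 2h (A and B), which were chosen by their titles and not by any measured value. The cells were primary dendritic cells taken from lymph nodes of C57BL/6 mice, and both genotypes received Pam3CSK4 at 1 mg/ml, as the labels state it. No culture left untreated for 2 h is among the arrays, so the comparison is between genotypes of treated cells. The other 8 arrays hold the same genotypes at 0 h and 4 h. What drives the deletion, in which cells it acts, the age and number of the mice and any pooling are not given in the sources used here. Because nothing says that arrays A and B came from separate animals or cultures, the p-values measure the spread between these arrays, which may be technical.

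The kinase p38a, encoded by Mapk14, is a stress-activated MAP kinase. Toll-like receptors switch it on through the adaptor MyD88, the kinase TAK1 and the MAP kinase kinases Map2k3 and Map2k6, and it then activates Mapkapk2, which controls the decay and translation of AU-rich cytokine mRNAs, and the nuclear kinases Rps6ka4 and Rps6ka5, which phosphorylate CREB and chromatin. In dendritic cells the pathway is known for its part in maturation and in the choice of the cytokines that steer T helper cells. Dendritic cells of the lymph node present antigen to T cells, and a preparation of them can also hold macrophages, lymphocytes and stromal cells.

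Levels are given as log2(signal + 16) of the between-array normalised signal of a gene's brightest probe set, so that a difference of 1 is a doubling on that scale, and the fold is understated for dim genes. A gene was called where its limma p-value, adjusted by Benjamini-Hochberg over all 12792 genes tested, was below 0.05. Each comparison was of 2 arrays with 2, and SE is the standard error from the fit over all 12 arrays. The arrays of 1 genotype at 2 h correlated at 0.987 (KO) and 0.988 (WT) over all genes. The best correlation of each with an array of the other genotype was 0.984 to 0.985. With 2 arrays in a group these values do not show whether either stood apart. The trimmed mean signal before normalisation was 72.5 and 66.6 on the KO arrays and 83.0 and 84.5 on the WT arrays. The 3'/5' signal ratio of the Gapdh control, a measure of RNA quality, was 0.848 and 0.922 in KO and 0.834 and 0.834 in WT. Both measures thus ran apart with genotype, and their part in the results was not tested.

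Mapk14 itself was not called lower on the knockout arrays. Its brightest probe set had levels of 8.05 and 8.07 in KO and 7.76 and 7.44 in WT, a difference of 0.46 (SE 0.13, adjusted p = 0.0895). Of its 6 probe sets, some of which lay below the low-signal filter, 4 were higher and 2 lower in KO, and none was called. Over 23 alternative runs the difference of Mapk14 ranged from 0.21 to 0.62. Where these probes lie relative to the deleted part of the gene is not given in the sources used here, so the values neither check nor contradict the labels.

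At 2 h, 294 genes (2.3% of those tested) differed between the genotypes, 129 higher in the knockout (1.01%) and 165 lower (1.29%). These shares are the background for each count of called list members below. Most differences were small. The median size was 0.51 among called genes and 0.14 among all genes, and 12 genes in each direction reached 2-fold. The 4 arrays separated completely by genotype for all 294 called genes and for 5753 of all genes (45%), which is the background for each such separation described below. The split between the directions depends on the scaling. On the scale the authors deposited, without further normalisation between arrays, the median gene differed by -0.15, and 5 genes were called higher and 61 lower, that is 7.58% higher in place of 43.9%. Of the 129 higher calls 5 kept their call there, and of the 165 lower calls 50 did. Many calls were also lost when 1 of the 4 arrays was left out. Such a fit has 1 array in a group and is a weaker test, so a lost call does not show that it rested on that array. Only 50 of the 294 (17 higher and 33 lower) were called whichever of the 4 arrays was left out, and these are described below as held. On the deposited scale 2 of the 17 (Dcpp1 and Ccl12) and 26 of the 33 kept their call. The total fell to 67 without WT 2 h B, 90 without KO 2 h B, 148 without KO 2 h A and 156 without WT 2 h A. At the threshold itself the adjusted p stepped from 0.0498 to 0.0502, and 228 further genes lay between 0.05 and 0.10.

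**Figure D1:**
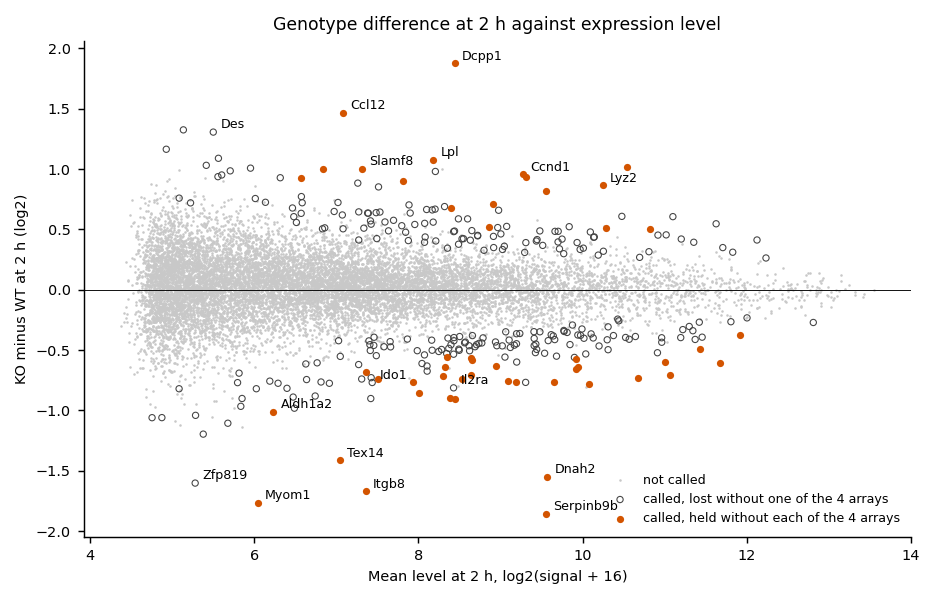
KO minus WT difference at 2 h (log2, y axis) against the mean level of the 4 arrays (log2(signal + 16), x axis) for all 12792 genes. Grey points were not called, open circles were called but lost the call without 1 of the 4 arrays, and the 50 orange points were called without each array; the held calls span 0.51 to 1.88 above zero and -0.38 to -1.86 below it.

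The genes described first are the 15 highest and 15 lowest called genes whose arrays do not overlap between the genotypes, with clone-like names passed over. Without that exception Gm17396 (1.16), A330009N23Rik (1.03) and 1810064F22Rik (-0.91) would stand among them, of which 1810064F22Rik held and kept its call on the deposited scale (adjusted p = 0.00589).

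Serpinb9b, a clade B serine protease inhibitor related to the granzyme B inhibitor Serpinb9, was the most strongly reduced gene. Its levels were 8.70 and 8.54 on the KO arrays and 10.43 and 10.53 on the WT arrays, 3.62-fold lower in KO (difference -1.86, SE 0.09, adjusted p = 1.67e-08). Myom1, which encodes the sarcomere protein myomesin, read 5.02 and 5.30 in KO and 6.82 and 7.03 in WT (-1.76, SE 0.19, adjusted p = 1.23e-04). Tex14, known from intercellular bridges of germ cells, read 6.39 and 6.29 against 7.71 and 7.79 (-1.41, SE 0.12, adjusted p = 1.64e-05). These 3 genes held.

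Itgb8 and Aldh1a2, both known from dendritic cells that promote regulatory T cells, were also lower. Itgb8 is the integrin beta subunit that, with alpha v, releases active TGF-beta from its latent form. Its levels were 6.62 and 6.42 in KO and 8.07 and 8.31 in WT, 3.18-fold lower in KO (-1.67, SE 0.18, adjusted p = 1.21e-04). Aldh1a2 makes retinoic acid, the signal by which some dendritic cells imprint gut homing on T cells. It read 5.65 and 5.81 in KO and 6.77 and 6.71 in WT (-1.01, SE 0.16, adjusted p = 0.00354). Both held, and both kept their calls on the deposited scale, with differences of -1.85 and -1.11.

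Dnah2, an axonemal dynein heavy chain, read 8.77 and 8.82 in KO and 10.51 and 10.18 in WT (-1.55, SE 0.10, adjusted p = 5.61e-07) on its brightest probe set. Its other probe set above the low-signal filter went the opposite way, and with the mean of both the call was lost (adjusted p = 0.0705). The remaining 9 of the 15 leading lower genes did not hold. Among these, Mmp7, the secreted protease matrilysin, differed by -1.04 (adjusted p = 0.0252, up to 0.194 with 1 array left out, lost without each of the 4). Arc, a cytoskeletal gene known from neurons and migrating dendritic cells, differed by -0.90 (adjusted p = 0.0027) and missed the threshold narrowly without KO 2 h B or WT 2 h B (at most 0.0525). Zfp819, a zinc finger gene, differed by -1.60 (adjusted p = 0.00563), with the mean of the KO arrays under the level of the low-signal filter, and was lost without KO 2 h A or WT 2 h A (at most 0.08). Cetn4, a centrin, differed by -0.98 and Etfbkmt, a mitochondrial methyltransferase, by -0.97, with adjusted p of 0.00418 and 0.0298. Without 1 array these reached 0.0626 (lost without KO 2 h B or WT 2 h B) and 0.262 (lost without KO 2 h B, WT 2 h A or WT 2 h B). Also lower were Plekhs1 (-1.20), the noncoding Carlr (-1.11), Fam160a1 (-1.06) and the zinc finger gene Zfp358 (-1.06), with adjusted p between 0.0136 and 0.0472. The mean of the KO arrays lay under the level of the low-signal filter for Fam160a1 and Zfp358. Each of these was lost when WT 2 h B, WT 2 h A or KO 2 h B was left out, with adjusted p of up to 0.239.

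At the other end, Dcpp1 showed the largest increase. It encodes a secreted protein of the salivary gland and has near-identical copies. Its levels were 9.05 and 9.72 on the KO arrays and 7.23 and 7.78 on the WT arrays, 3.67-fold higher in KO (1.88, SE 0.27, adjusted p = 0.00144). The copy Dcpp3, read by a probe set that can cross-hybridise, differed by 0.98 (adjusted p = 0.0075, lost without KO 2 h B, WT 2 h A or WT 2 h B at up to 0.129), and the share of each copy in the signal cannot be separated. Lpl, lipoprotein lipase, read 8.88 and 8.56 in KO and 7.68 and 7.61 in WT (1.08, SE 0.11, adjusted p = 8.60e-05). Slamf8, a SLAM-family receptor of myeloid cells, read 7.74 and 7.89 against 6.95 and 6.67 (1.00, SE 0.14, adjusted p = 9.18e-04). Pmp22, a membrane protein best known from myelin, read 7.42 and 7.27 against 6.40 and 6.28 (1.00, SE 0.13, adjusted p = 4.67e-04). Dcpp1, Lpl, Slamf8 and Pmp22 held without each array. On the deposited scale only Dcpp1 of these 4 kept its call, and the others were higher by 0.83, 0.77 and 0.78 there without passing the test (adjusted p of 0.183, 0.25 and 0.197).

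Most other genes at this end were dim and lost their calls when 1 array was left out. Des, the muscle intermediate filament desmin, read 6.23 and 6.08 in KO but 5.35 and 4.35 in WT on arrays that lay far apart (1.31, adjusted p = 0.0259, at most 0.251 and lost without KO 2 h A, KO 2 h B or WT 2 h B). Dlk2 (1.32, with the mean of the WT arrays under the level of the low-signal filter), the TBK1-binding adaptor gene Tbkbp1 (1.09), the ribosome assembly factor Nob1 (1.01), the neuregulin Nrg2 (0.98), the diacylglycerol kinase Dgkk (0.95) and the vesicle protein gene Syt11 (0.94) also lost their calls without at least 1 array. Their highest adjusted p was 0.322, for Nob1 without WT 2 h B. Of the 30 leading genes 13 held, 7 higher and 6 lower.

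**Figure D2:**
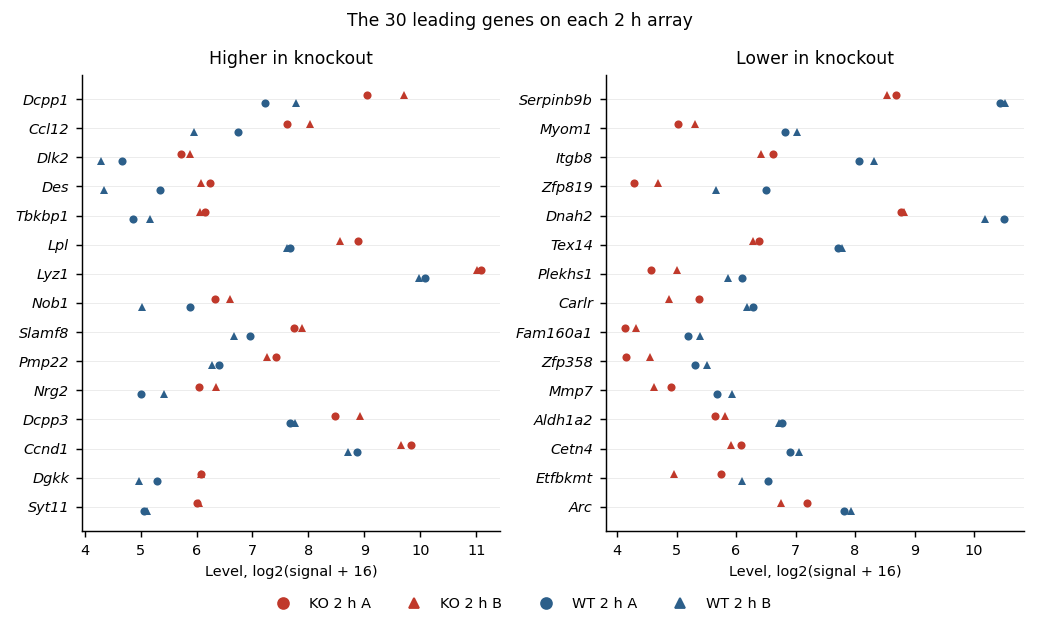
Levels (log2(signal + 16), x axis) of the 15 most raised and 15 most reduced called genes, clone-like names passed over, on each 2 h array; circles are arrays A and triangles arrays B, red for knockout and blue for wild type. The 30 genes were chosen so that red and blue symbols do not overlap, and the distance between the arrays of one genotype is widest for Des in wild type (5.35 and 4.35).

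Macrophage and monocyte genes gave the highest median difference of the 31 gene lists. Of 16 tested markers 8 were higher and 0 lower, against 1.01% and 1.29% of all genes, and the list's median difference was 0.46 beside 0.03 for all genes. Lyz2, the lysozyme of macrophages and neutrophils, read 10.74 and 10.61 in KO and 9.83 and 9.79 in WT (0.87, SE 0.08, adjusted p = 4.98e-05). Marco, a scavenger receptor for bacteria, read 7.15 and 6.92 in KO and 6.06 and 6.14 in WT (0.93, SE 0.15, adjusted p = 0.00274). Both of these held, but Marco lost its call with the mean of its probe sets. The complement gene C1qb read 8.42 and 8.57 in KO and 7.89 and 7.79 in WT (0.66, adjusted p = 0.00401), and C1qa read 8.38 and 8.48 against 7.77 and 7.76 (0.66, adjusted p = 0.00566). Either call was lost without KO 2 h B or WT 2 h B, at adjusted p of up to 0.069 and 0.0813. The third C1q chain, C1qc, differed by 0.65 (adjusted p = 0.0227), Csf1r, the receptor for macrophage colony-stimulating factor, by 0.48 (0.00976), the adhesion molecule gene Vcam1 by 0.44 (0.0148) and the lysosomal protein gene Cd68 by 0.39 (0.0472). Those 4 calls were lost without KO 2 h A, KO 2 h B or WT 2 h B, at up to 0.364.

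The summed signal of the 19 measured genes of the list was 5444 and 5394 on the KO arrays and 3744 and 3421 on the WT arrays. Bright members such as Lyz2 and Vcam1 weigh most in such a sum, so it is not separate from the calls above. The list was not raised evenly, with 14 of the 16 tested genes higher in KO and differences from -0.25 to 0.93. Timd4 read 6.27 and 6.47 in KO and 6.29 and 6.66 in WT, and Cx3cr1 read 4.48 and 5.01 against 4.84 and 5.15. Adgre1, which encodes the macrophage marker F4/80, was higher without passing the test (6.63 and 6.69 in KO, 6.29 and 6.09 in WT, adjusted p = 0.0929). The tissue macrophage markers Cd163 and Vsig4 lay below the low-signal filter on all 4 arrays. Of 27 dendritic cell markers tested 2 were higher, Itgax and H2-Ab1, and 1 was lower, Ccr7, beside 1.01% and 1.29% of all genes. The sum for the 28 measured was 52290 and 50980 in KO and 51700 and 50380 in WT, which overlap. Bright members such as Fscn1 and H2-Aa weigh most in that sum. In bulk samples more cells of a type and more RNA per cell cannot be told apart, and whether the cultures differed in their share of macrophages was not tested. On the deposited scale none of the 8 kept its call, with Lyz2 higher by 0.57 (adjusted p = 0.452) and Marco by 0.71 (0.281).

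Lyz1, the lysozyme gene next in sequence to Lyz2, was read at 11.09 and 11.01 in KO and 10.09 and 9.98 in WT (1.01, adjusted p = 8.51e-06) by a probe set that can cross-hybridise with it. With such probe sets left out, the difference of Lyz1 was -0.32 and no longer called (adjusted p = 0.608), so its value cannot be separated from that of Lyz2, whose own probe set is not of that kind. Other raised genes, named after their values were seen, were Selenop, the selenium carrier protein (0.82, adjusted p = 6.82e-04), Tgm2, transglutaminase 2 (0.51, 4.67e-04), Lgals1, galectin-1 (0.51, 7.35e-04), Pycard, the inflammasome adaptor ASC (0.52, 0.0027), and Glrx, glutaredoxin (0.67, 0.00222), all of which held. Mmp12, macrophage elastase, differed by 0.85, Apoe, apolipoprotein E, by 0.66, and Gpnmb, a glycoprotein of lipid-laden macrophages, by 0.48, with adjusted p of 0.00529, 0.005 and 0.00529. Each of these 3 was lost without WT 2 h B and without 1 of the KO arrays, at up to 0.0884.

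Chemokines of the monocyte chemoattractant (MCP) type were also raised. All 4 such genes were higher in KO, and of the other 25 chemokines tested 0 were called (3 higher and 3 lower at an unadjusted p under 0.05 in limma), with differences from -0.34 to 0.44. Ccl12 read 7.62 and 8.02 in KO and 6.75 and 5.96 in WT, 2.77-fold higher in KO (1.47, SE 0.19, adjusted p = 7.14e-04), although the WT arrays lay further from each other than the KO arrays. Ccl8 read 9.67 and 9.87 against 8.88 and 8.80 (0.93, SE 0.10, adjusted p = 7.97e-05). Both held, and Ccl12 was among the 5 raised genes that kept the call on the deposited scale (1.22, adjusted p = 0.00198). Ccl2, the main attractant of blood monocytes, read 10.70 and 10.86 in KO and 10.33 and 10.02 in WT (0.61, SE 0.10, adjusted p = 0.0027), and Ccl7 read 8.59 and 8.74 against 8.12 and 7.82 (0.69, SE 0.11, adjusted p = 0.00354). Ccl2 and Ccl7 missed the threshold without KO 2 h B or without WT 2 h B, at up to 0.0592 and 0.0687. The macrophage marker sum given above ran in the same direction on the same arrays, and whether the chemokines follow it was not tested.

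Promoter sequences were read from RefSeq (GRCm38.p6) as windows of 300 bases, from 250 before to 50 after each gene's start, and matched 10324 of the genes tested and 235 of the 294 called. Ccl12 and Ccl8 are shown because they are neighbours on chromosome 11 that were raised together. Capitals mark a TATA box (TATAAA), which begins 31 bases before the start in Ccl12 (chr11:82101595-82101894, plus strand) and 32 before it in Ccl8 (chr11:82114935-82115234, plus strand).
Ccl12: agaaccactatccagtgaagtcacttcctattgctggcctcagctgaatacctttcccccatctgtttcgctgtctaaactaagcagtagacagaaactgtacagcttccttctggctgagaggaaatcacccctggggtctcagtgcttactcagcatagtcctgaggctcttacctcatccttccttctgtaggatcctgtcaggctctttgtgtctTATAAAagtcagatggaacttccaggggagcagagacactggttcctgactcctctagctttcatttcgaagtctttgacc
Ccl8: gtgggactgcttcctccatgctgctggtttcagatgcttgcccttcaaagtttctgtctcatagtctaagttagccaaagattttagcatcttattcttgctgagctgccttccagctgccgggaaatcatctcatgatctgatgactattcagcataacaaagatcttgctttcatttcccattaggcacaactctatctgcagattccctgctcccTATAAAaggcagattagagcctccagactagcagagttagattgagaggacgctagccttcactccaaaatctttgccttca

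Slamf8 and Itgax are shown because both hold an AP-1 site (TGANTCA, in capitals), the element bound by Fos and Jun proteins, and C1qc because it holds an ETS site of the PU.1 type (GAGGAAGT, here on the reverse strand). Slamf8 (chr1:172590519-172590818, minus strand) and C1qc (chr4:136892865-136893164, minus strand) also hold a match to the NF-kB motif, in capitals further 3'. In Slamf8 the AP-1 and NF-kB matches begin at bases 260 and 287 of the window, both after the gene's start. The Itgax window lies at chr7:128129300-128129599 on the plus strand, and its AP-1 site begins 56 bases before the start. Itgax, which encodes the dendritic cell integrin CD11c, was higher in KO (7.35 and 7.42 against 6.74 and 6.58, 0.72, adjusted p = 0.00279, 0.0579 without WT 2 h B).
Slamf8: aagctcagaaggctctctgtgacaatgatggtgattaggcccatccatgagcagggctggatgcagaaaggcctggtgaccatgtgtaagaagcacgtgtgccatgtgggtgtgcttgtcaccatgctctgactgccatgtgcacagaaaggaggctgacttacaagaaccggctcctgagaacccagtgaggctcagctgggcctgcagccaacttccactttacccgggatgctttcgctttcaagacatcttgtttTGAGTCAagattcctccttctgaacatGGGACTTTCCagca
C1qc: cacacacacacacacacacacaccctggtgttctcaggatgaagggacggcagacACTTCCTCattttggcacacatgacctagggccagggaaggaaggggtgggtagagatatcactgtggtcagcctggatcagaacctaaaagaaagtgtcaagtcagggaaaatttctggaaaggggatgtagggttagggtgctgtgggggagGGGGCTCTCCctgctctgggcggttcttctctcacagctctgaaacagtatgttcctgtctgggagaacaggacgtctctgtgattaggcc
Itgax: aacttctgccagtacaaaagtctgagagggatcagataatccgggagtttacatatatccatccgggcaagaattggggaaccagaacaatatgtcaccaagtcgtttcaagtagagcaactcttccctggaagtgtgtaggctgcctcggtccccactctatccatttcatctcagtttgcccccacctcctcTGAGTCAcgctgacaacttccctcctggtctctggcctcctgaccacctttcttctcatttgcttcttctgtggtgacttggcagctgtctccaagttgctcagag

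Dusp1 is shown for its CRE (TGACGTCA, in capitals), the element bound by CREB, in a window at chr17:26508423-26508722 on the minus strand, and Serpinb9b, the most reduced gene, because its window (chr13:33027164-33027463, plus strand) held no match to any of the 6 motifs searched.
Dusp1: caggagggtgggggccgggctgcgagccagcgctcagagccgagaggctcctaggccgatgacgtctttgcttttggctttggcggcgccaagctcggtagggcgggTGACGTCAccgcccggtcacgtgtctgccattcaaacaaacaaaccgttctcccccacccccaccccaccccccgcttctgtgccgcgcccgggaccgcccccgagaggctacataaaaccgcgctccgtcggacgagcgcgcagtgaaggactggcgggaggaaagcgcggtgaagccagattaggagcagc
Serpinb9b: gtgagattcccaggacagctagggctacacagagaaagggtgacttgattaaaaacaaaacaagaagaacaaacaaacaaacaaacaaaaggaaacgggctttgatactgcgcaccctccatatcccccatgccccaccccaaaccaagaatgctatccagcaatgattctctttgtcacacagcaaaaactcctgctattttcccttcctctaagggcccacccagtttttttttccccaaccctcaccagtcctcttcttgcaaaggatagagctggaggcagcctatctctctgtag

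Over all genes, each motif was searched on both strands. AP-1 sites were found in 15.3% of 98 raised genes, 8.03% of 137 reduced genes and 6.82% of all 10324. The PU.1-type site was in 11.2%, 4.38% and 3.87%, and the NF-kB motif in 13.3%, 11.7% and 6.32%. CRE stood at 5.1%, 4.38% and 3.36%, the STAT motif (TTCNNNGAA) at 7.14%, 8.03% and 8.21%, and TATAAA at 13.3%, 16.8% and 9.71%. The raised genes with an AP-1 site were 15 in number and included Slamf8, Itgax, Cd68, Gpnmb, Mmp12 and Tfe3. These shares describe the letters in the windows, and no test was made of them.

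Of 27 tested genes of the cascade in which p38a acts, 1 was called and 6 were higher and 0 lower at an unadjusted p under 0.05 in limma, beside 1115 and 790 of all 12792 genes. The called gene was Hspb1, the small heat shock protein that is a substrate of Mapkapk2 (10.10 and 10.26 in KO, 9.82 and 9.86 in WT, 0.34, adjusted p = 0.037, lost without any 1 of the 4 arrays at up to 0.272). The list's median difference was 0.02. The other p38 isoforms gave 0.25 (Mapk11, adjusted p = 0.602), 0.70 (Mapk12, 0.168) and -0.38 (Mapk13, 0.43). The activating kinases gave 0.02 for Map2k3 (adjusted p = 0.958), -0.36 for Map2k4 (0.415) and 0.18 for Map2k6 (0.868). Downstream, Mapkapk2 differed by -0.15 (95% interval -0.38 to 0.09) and Mapkapk3 by 0.26 (-0.00 to 0.52), while Mknk1, a kinase of the translation factor eIF4E, came closest to a call after Hspb1 (0.46, adjusted p = 0.0537). Rps6ka5 differed by -0.11 (adjusted p = 0.759), and Rps6ka4 was not analysed here.

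Among 14 MAP kinase phosphatases 1 was called, where 2.3% of all genes were. Of 17 genes of the ERK and JNK pathways 0 were called (3 higher and 1 lower at an unadjusted p under 0.05 in limma). Dusp1, which dephosphorylates p38 and JNK and is itself induced through them, read 10.75 and 10.74 in KO and 11.16 and 11.21 in WT (-0.43, SE 0.07, adjusted p = 0.00247). It moved to an adjusted p of 0.0502 without WT 2 h B, and kept its call on the deposited scale. It was also the 1 call among 31 feedback regulators of TLR signalling. Closest among the ERK and JNK genes were Map3k3 (0.39, adjusted p = 0.0795) and the scaffold gene Ksr1 (0.45, 0.0989). Of 40 immediate-early, AP-1 and CREB-type factors 1 was higher, Maff, a small Maf protein (0.49, adjusted p = 0.0308), and 1 lower, Nfil3, a repressor needed for the dendritic cell lineage that primes CD8+ T cells (-0.50, 0.0339). Both were lost without KO 2 h A or WT 2 h B, among others, at up to 0.282 and 0.246. Proteins that bind AU-rich elements or govern mRNA decay gave 1 higher and 1 lower of 27. Zfp36l2 was higher by 0.45 (adjusted p = 0.0381) on its brightest probe set, lower by -0.12 with the mean of all its probe sets, and not called without KO 2 h B or either WT array (up to 0.289). Tob1, which recruits the deadenylase complex, was lower by -0.40 (adjusted p = 0.0397) and lost without any 1 array (up to 0.215).

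Of 31 NF-kB subunits and targets 3 were lower and 0 higher, beside 1.29% and 1.01% of all genes (7 and 0 at an unadjusted p under 0.05 in limma, beside 790 and 1115 of all 12792). Map3k14, the kinase NIK of the alternative pathway, read 7.37 and 7.06 in KO and 7.74 and 7.78 in WT (-0.55, adjusted p = 0.017). Birc2, the ubiquitin ligase cIAP1, differed by -0.33 (0.0259), and Rel, the c-Rel subunit that drives cytokine genes of dendritic cells, read 9.10 and 9.01 in KO and 9.38 and 9.45 in WT (-0.36, 0.0291). The 3 calls were lost without KO 2 h B or either WT array, at up to 0.262. The list's median was -0.02.

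Of the cytokines that steer T helper cells, 1 of 25 was called. Ebi3, the subunit shared by IL-27 and IL-35, was higher by 0.27 (adjusted p = 0.0475), the call was lost without any 1 array (up to 0.251), and on the deposited scale its difference was -0.05. Il6 read 11.79 and 11.83 in KO and 11.98 and 11.89 in WT (-0.12, 95% interval -0.25 to 0.0047), and Il12b, the p40 chain of IL-12 and IL-23, read 11.36 and 11.33 and 11.34 and 11.16 (0.10, -0.29 to 0.49). Il23a differed by -0.19 (-0.54 to 0.17), Il12a by -0.02 (-0.39 to 0.35), Il10 by -0.09 (-0.48 to 0.30) and Il1b by -0.03 (-0.20 to 0.15). These 6 intervals include zero, and those of Il12b, Il23a, Il12a and Il10 reach beyond 0.25 on at least one side and so do not exclude a difference of that size. Tnf, at 10.23 and 10.34 in KO and 9.99 and 9.82 in WT, differed by 0.38 without passing the test (adjusted p = 0.152), Il1a by 0.48 (0.105), Il33 by 0.37 (0.106), Il17a by -0.55 (0.0815) and Ifng by -0.32 (0.155). In a fit on only the 2 h arrays, Tnf and Il1a were called higher in KO. In all, 18 of the 25 differed by less than 0.25. Il27 was not analysed here, and Il4, Il13 and Tgfb3 lay below the low-signal filter.

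Cytokine and chemokine receptors gave 4 lower and 1 higher of 42, and co-stimulation and maturation genes 4 lower and 1 higher of 37, with Ccr7 in both lists. Of all genes 1.29% were called lower and 1.01% higher. Il2ra, the CD25 chain of the IL-2 receptor, read 8.15 and 7.89 in KO and 8.95 and 8.72 in WT (-0.81, SE 0.13, adjusted p = 0.00277, 0.0606 without KO 2 h B), and kept its call on the deposited scale. Ido1, which degrades tryptophan and restrains T cells, read 6.96 and 7.15 in KO and 7.83 and 7.81 in WT (-0.77, SE 0.13, adjusted p = 0.00408, 0.0511 without KO 2 h A). Ccr7, the receptor that brings dendritic cells to the T cell zone, was among the brightest genes, at 12.69 and 12.65 in KO and 12.99 and 12.90 in WT (-0.27, adjusted p = 0.0109). Also lower were Cxcr4 (-0.47, 0.0129), Il15ra (-0.37, 0.0143), the PD-1 ligand Pdcd1lg2 (-0.42, 0.0131) and Tnfrsf11a, the receptor RANK (-0.50, 0.0493). Cd48, a SLAM-family ligand, was higher (0.42, 0.0217), as was Csf1r, given above. Ccr7, Cxcr4, Il15ra, Pdcd1lg2, Tnfrsf11a and Cd48 were each lost when KO 2 h B, WT 2 h A or WT 2 h B was left out, at up to 0.248.

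**Figure D3:**
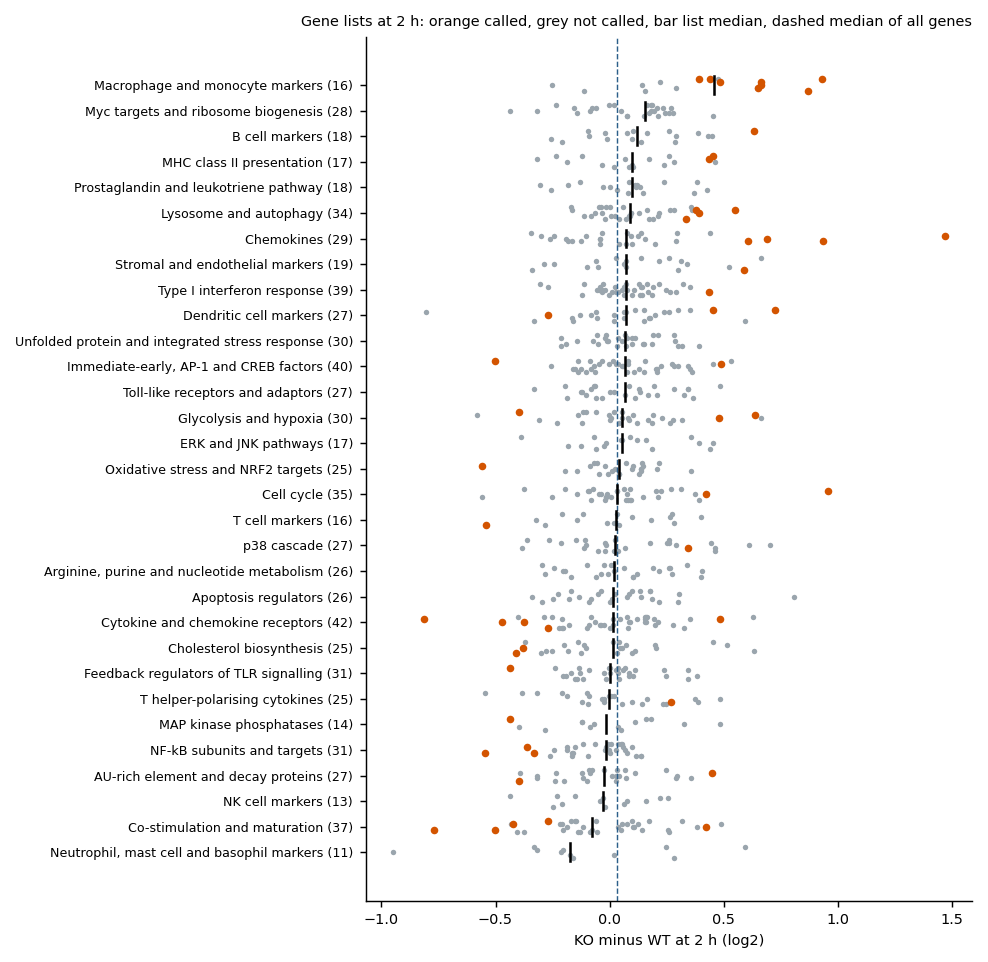
KO minus WT difference at 2 h (log2, x axis) of every tested member of the 31 gene lists (y axis, number tested in brackets, ordered by list median). Orange points were called and grey points were not, short bars are list medians and the dashed line is the median of all genes (0.03); the macrophage and monocyte list lies furthest to the right, at 0.46.

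The calls among genes of antigen processing and the lysosome were few, and all 6 were higher in KO, where 1.01% of all genes were. Of 17 MHC class II genes 2 were higher, H2-Ab1 (11.28 and 11.21 in KO, 10.83 and 10.75 in WT, 0.45, adjusted p = 0.0196) and H2-DMa, which loads peptides (0.44, 0.0337). Of 34 lysosome and autophagy genes 4 were higher, the proteases Ctsb (11.54 and 11.56 in KO, 11.16 and 11.15 in WT, 0.39, adjusted p = 0.00565), Ctsa (0.38, 0.0252) and Ctsd (0.33, 0.0321), and Tfe3, a transcription factor of lysosomal genes (0.55, 0.0281). List medians were 0.10 and 0.09. Each of the 6 calls was lost without KO 2 h B or WT 2 h B, at up to 0.237, and on the deposited scale none of the 6 kept its call (Ctsb 0.14, adjusted p = 0.888; Ctsd 0.03, 0.978). Cathepsins are abundant in macrophages too, and whether these calls follow the share of macrophages was not tested.

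Among cell cycle genes 2 of 35 were higher, beside 1.01% of all genes. Ccnd1, cyclin D1, read 9.84 and 9.66 in KO and 8.87 and 8.71 in WT, 1.94-fold higher in KO (0.96, SE 0.09, adjusted p = 5.39e-05), held, and had the same direction on all 3 of its probe sets. On the deposited scale it differed by 0.69 and was not called (adjusted p = 0.339). Ccnd2, cyclin D2, read 11.39 and 11.44 and 11.08 and 10.91 (0.42, adjusted p = 0.00728, up to 0.126 without KO 2 h B or WT 2 h B). Of the other 33 genes of the list, which include genes of DNA replication and mitosis, 0 were called (1 higher and 2 lower at an unadjusted p under 0.05 in limma). Cdkn2b, an inhibitor of the cyclin D kinases named after its values were seen, was lower (8.49 and 8.24 in KO, 8.92 and 8.93 in WT, -0.56, adjusted p = 0.00247) and held, but lost the call on the deposited scale (-0.83, adjusted p = 0.154).

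Few metabolic genes were called. Slc7a11, the cystine importer that feeds glutathione synthesis, read 8.06 and 8.07 in KO and 8.64 and 8.61 in WT (-0.56, SE 0.09, adjusted p = 0.0027), held, and was the 1 call among 25 oxidative stress genes. Its call was lost on the deposited scale (-0.82, adjusted p = 0.188) and with the mean of its probe sets. Of 25 cholesterol synthesis genes 2 were lower, Idi1 (-0.41, adjusted p = 0.00476) and Cyp51 (-0.38, 0.0348). Of 30 glycolysis and hypoxia genes Pfkfb3, which makes the activator of phosphofructokinase, was lower (-0.40, 0.00511) and the lactate dehydrogenase gene Ldha (0.48, 0.0113) and the hexokinase gene Hk3 (0.64, 0.0483) were higher. These 5 calls were lost without WT 2 h B, among others, at up to 0.377. Acadm, the medium-chain enzyme of fatty acid oxidation named after its values were seen, read 9.66 and 9.71 in KO and 10.42 and 10.51 in WT (-0.78, SE 0.08, adjusted p = 5.39e-05) and held.

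The remaining lists held few calls. Ifit2 was the 1 call of 39 type I interferon genes (0.43, adjusted p = 0.0076, up to 0.128 without KO 2 h B or WT 2 h B). The limma fit called 0 members in 6 lists, which at an unadjusted p under 0.05 gave 3 higher and 0 lower of 27 Toll-like receptors and adaptors, 1 and 2 of 18 genes of the prostaglandin and leukotriene pathway, 4 and 2 of 30 genes of the unfolded protein response, 3 and 3 of 26 apoptosis regulators, 7 and 0 of 28 Myc targets and 5 and 2 of 26 genes of arginine and nucleotide metabolism. The closest to a call in these were Calr (0.30, adjusted p = 0.0895) and Entpd1 (0.40, 0.0817). At an unadjusted p under 0.05, 1115 of all genes were higher and 790 lower.

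Markers of other cells that a lymph node preparation can hold were mostly not called, where 2.3% of all genes were called. Of 18 B cell markers Cd79b was higher (0.63, adjusted p = 0.0159, up to 0.166 with 1 array left out, lost without KO 2 h B or either WT array), and the list's summed signal was 4106 and 4209 in KO and 3785 and 3580 in WT. Of 16 T cell markers Cd8b1, the CD8 beta chain of T cells, was lower (-0.54, 0.0103, up to 0.142, lost without the same arrays), with sums of 2392 and 2361 against 2604 and 2521. Pdpn, podoplanin, was the 1 call of 19 stromal and endothelial markers (0.59, 0.00609, up to 0.108 without KO 2 h B or WT 2 h B), with sums of 3803 and 4050 against 3526 and 3082. Of 13 NK cell markers and 11 neutrophil, mast cell and basophil markers 0 were called (0 higher and 1 lower in each list at an unadjusted p under 0.05 in limma). The B cell, T cell and stromal sums each separated the genotypes, as 45% of single genes did, and their part in the results was not tested. Bright members such as Ighm, Il7r and Glycam1 weigh most in these sums, so they do not show a shift of the whole list.

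Outside the lists stood 245 of the 294 calls. Those named here held, and were chosen after their values were seen. Plat, the tissue plasminogen activator, read 9.30 and 9.24 in KO and 10.10 and 9.97 in WT (-0.76, SE 0.09, adjusted p = 3.66e-04), and S100a10, the subunit that binds plasminogen and its activator at the cell surface, read 11.32 and 11.43 and 12.03 and 11.93 (-0.61, SE 0.07, adjusted p = 1.23e-04). Serpinb1a, an elastase inhibitor of the same clade as Serpinb9b, read 10.69 and 10.75 in KO and 11.53 and 11.31 in WT (-0.70, adjusted p = 8.44e-04). All 3 were lower in KO. Adhesion and trafficking genes among the lower calls were Alcam, the CD6 ligand on antigen-presenting cells (-0.71, adjusted p = 4.67e-04), Stx11, a syntaxin of granule release (-0.66, 1.23e-04), Flrt3, an adhesion protein (-0.86, 5.39e-05), and Tspan3, a tetraspanin (-0.49, 2.28e-04). Enzymes among them were Gsto1, a glutathione transferase (-0.73, 0.00116), Got1, aspartate aminotransferase (-0.64, 3.66e-04), Pcyt1a of phosphatidylcholine synthesis (-0.71, 5.56e-04), and Uap1, which makes UDP-N-acetylglucosamine (-0.60, 7.97e-05). Where a called gene had several probe sets above the filter, all of them had the same sign in 119 of 145 cases, and 149 called genes had a single such probe set.

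The calls at 2 h were set beside those before stimulation and at 4 h. The arrays at 0 h and 4 h are not those of the 2 h comparison. All 3 comparisons share 1 normalisation and 1 estimate of each gene's spread, however, so their calls are not independent. At 0 h 422 genes were called (3.3%), and 172 were called in the same direction at both times, which is 58.5% of the 2 h calls and 40.8% of the 0 h calls. Of the 294, 275 (93.5%) had the same sign at 0 h, beside 62% of all genes. At 4 h 306 genes were called (2.39%), 155 of them in common with 2 h and in the same direction (52.7% of the 2 h calls, 50.7% of the 4 h calls), with 276 of 294 (93.9%) of the same sign beside 59.1% of all genes. In fits on only the arrays compared, 131 of 353 calls at 2 h were shared in direction with 0 h and 111 with 4 h. On the deposited scale 12 of 66 calls at 2 h were shared in direction with 0 h and 21 with 4 h. In the normalised fit 128 genes were called alike at all 3 times (52 higher, 76 lower), 44 at 2 h and 0 h only, 27 at 2 h and 4 h only, and the remaining 95 were called at neither other time in the direction of 2 h, with Procr among them called the opposite way at 0 h. Of the 50 held calls 44 were called alike at all 3 times. Serpinb9b differed by -1.84, -1.86 and -1.91 at 0 h, 2 h and 4 h, Ccl12 by 1.64, 1.47 and 1.60, and Ccnd1 by 0.97, 0.96 and 1.11. Dlk2, Des, Nob1 and Tbkbp1, all dim, were called at neither other time, with differences at 0 h of -0.79, 0.30, 0.07 and 0.23. A call at 2 h alone is not shown to be particular to that time unless the difference between the times was tested.

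**Figure D4:**
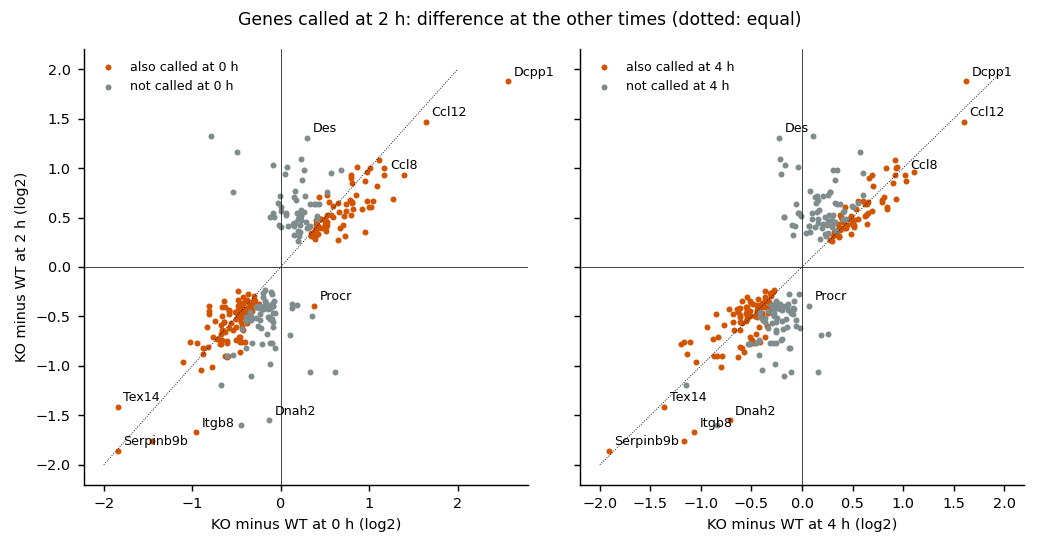
KO minus WT difference at 2 h (log2, y axis) of the 294 genes called at 2 h against the difference at 0 h (left) and 4 h (right); orange genes were also called at the other time and the dotted line marks equal differences. Most points lie in the quadrants of equal sign (275 of 294 at 0 h and 276 at 4 h).

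That test, the KO minus WT difference at 2 h less that at 0 h, called 4 genes (0.0313%), 0 with a higher and 4 with a lower value at 2 h, beside 754 at an unadjusted p under 0.05 in limma. It shares the 2 h arrays with the comparison above. Dnah2 differed by -0.13 at 0 h and -1.55 at 2 h, and its probe sets disagreed as stated. Procr, the endothelial protein C receptor, was higher in KO at 0 h (0.38) and lower at 2 h (-0.39, adjusted p = 0.0098, up to 0.125 without KO 2 h A or WT 2 h A). The chemokine gene Ccl6 was higher in KO at 0 h by 1.04 and differed by -0.30 at 2 h (adjusted p = 0.229), and Col27a1, a fibrillar collagen, went from 1.34 to 0.34 (adjusted p = 0.107 at 2 h). Ccl6 and Col27a1 are thus among the genes of the 0 h comparison that did not pass the test at 2 h. The count of genes called by the test of the difference between times was 2 without KO 2 h A, 2 without WT 2 h A and 8 without WT 0 h A.

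**Figure D5:**
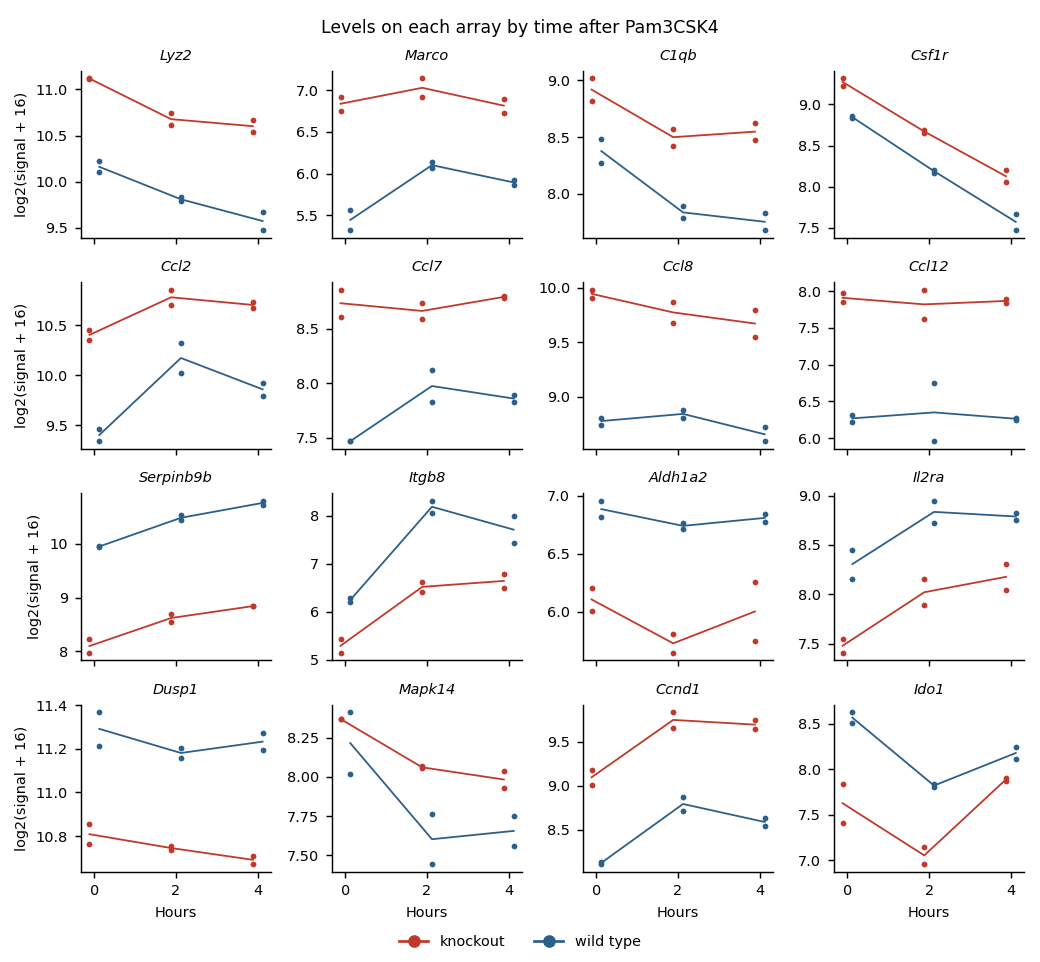
Level (log2(signal + 16), y axis, own range in each panel and not starting at zero) of 16 genes on every array at 0 h, 2 h and 4 h (x axis); points are arrays, lines join the means of 2 arrays, red for knockout and blue for wild type. The 8 genes of the upper panels lie higher in knockout at all 3 times, and Serpinb9b, Itgb8, Aldh1a2, Il2ra and Dusp1 lie lower at all 3.

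The genes that flank Mapk14 were read as a group of their own. Of the 50 tested genes nearest to it, 25 on each side, 0 were called (4 higher and 4 lower at an unadjusted p under 0.05 in limma), at a median difference of 3e-04 and a range of -0.78 to 0.54. On chromosome 17 as a whole 15 of 634 genes were called (2.37%), close to the 2.3% of all genes.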

How the data were processed

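RNA of the 12 samples was hybridised, after biotin labelling with a 3' IVT kit, to Affymetrix mouse arrays of 45101 probe sets, and the authors deposited 1 signal intensity per probe set and array, made with MAS5 per the submitters' processing notes (its version and target scaling are not stated there). The values are linear intensities between 0.0180 and 12900, and they hold no counts, so that the number of arrays limits the precision.

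Intensities were quantile normalised over all 12 arrays and set to log2(value + 16). Probe sets were named from the platform annotation with current RefSeq symbols (34958 with 1 symbol, 932 with several and 9211 with none, of which only the first were used), and each gene was read by its brightest probe set. Genes under the 40th percentile of mean level (4.73, a signal of 10.6) were left out, which kept 12792 of 18194. limma 3.58.1 in R 4.3.3 (lmFit and eBayes with trend) fitted 6 group means over 12 arrays, with Benjamini-Hochberg adjustment and a threshold of 0.05, and was tested on simulated data. The letters A and B were not treated as pairs, and the sources used here do not say whether they are. The A minus B deviations of KO and WT at 2 h correlated at -0.01. Over all pairs of groups these correlations ran from -0.04 (KO 0 h with KO 4 h) to 0.10 (WT 0 h with WT 4 h).

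Genes were named by a rule: the 15 highest and 15 lowest called genes whose arrays do not overlap (clone-like names and antigen receptor segments passed over), up to 4 called members per gene list, every member of the p38 and T helper cytokine lists, and the closest members of lists with no call. Members and lists were chosen with earlier results of these data known. The fit was repeated on the deposited scale and with trimmed-mean scaling, other pseudocounts and filters, other probe set rules, eBayes without trend, a replicate block, only the arrays compared, and leaving out each array.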

Additional observations from a re-analysis of the deposited data

Results flagged for a closer look

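Of the genotype differences, 4 changed between 0 h and 2 h by the test of the difference itself, which is the change of KO less that of WT. It was -1.42 for Dnah2 (adjusted p in limma of 4.65e-04), -1.34 for Ccl6 (0.00461), -1.001 for Col27a1 (0.0144) and -0.77 for Procr (0.0112). With a gene's probe sets averaged, 0 genes passed this test, and with eBayes without trend 0 did as well.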

How the results depend on the processing

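The counts below are of calls at the 0.05 threshold of limma. On the deposited scale 66 genes were called at 2 h (5 higher, 61 lower), 31 at 0 h and 43 at 4 h, with 12 calls shared in direction by 2 h and 0 h and 21 by 2 h and 4 h; the median gene shifts by -0.15 on that scale. With eBayes without trend they were 71 (26 and 45), 116 and 85, with 33 and 30 shared and 0 for the change between 0 h and 2 h. The mean of all probe sets gave 198 at 4 h and 0 for that change, and a fit on only the arrays compared gave 229 at 0 h and 193 at 4 h. With that mean Marco, Csf1r, Ctsb, Idi1, Syt11 and Tbkbp1, among others, lost their 2 h calls. Leaving out 1 array at a time gave 67 to 305 calls at 2 h (26 to 136 higher, 41 to 169 lower), 192 to 397 at 0 h, 103 to 319 at 4 h, 2 to 8 for the change between 0 h and 2 h, 51 to 162 shared by 2 h and 0 h and 47 to 158 shared by 2 h and 4 h. A genotype with 1 array left is assumed to vary like the other groups. The replicate block gave 315 calls, 139 higher and 176 lower, at 2 h, 464 at 0 h and 345 at 4 h. Whether the letters pair the arrays is not stated, and no count moved by over 1.5 times with the block. Ebi3 turned to -0.0511 on the deposited scale, Lyz1 to -0.32 without cross-hybridising probe sets, and Zfp36l2 to -0.12 with the mean of its probe sets; the cause was not tested. Of 73 called genes under the naming rule, 48 lost the call on the deposited scale and 56 without 1 of the 2 h arrays, and 6 (Serpinb9b, Myom1, Itgb8, Tex14, Aldh1a2 and Ccl12) kept it in every alternative run. Trimmed-mean scaling, other pseudocounts, and both other filter settings on low levels kept the 2 h counts within 1.5 times.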
